A study of Mus musculus with 5 samples.

Results

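The presynaptic vesicle release machinery, the proteins that dock, prime, fuse and recycle synaptic vesicles, was followed through 36 genes out of the 33635 in the count table of the mouse retina. The genes were chosen by name, with earlier results of these data known. They were SNARE proteins and Nsf, complexins, synaptotagmins, and active zone and priming proteins. The others were the small GTPase Rab3a with its effector Rph3a, vesicle proteins and endocytic proteins. Each symbol had a single entry in the table, and all 36 genes passed the count filter (over 10 counts in 2 or more libraries, which left 17432 genes). Their counts ran from 271 (Syn3, Control 1) to 66612 (Snap25, Control 2), and together they held 1.11% to 1.13% of the counts of each library.

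The libraries came from wild-type male C57BL/6J mice, a common inbred laboratory strain. A diffuser goggle, which blurs the retinal image, was mounted over the right eye at postnatal day (P) 28 and the retina was taken at P42, after 2 weeks (form-deprivation myopia, FDM; n = 2 libraries), while the left eye of these mice stayed uncovered as the control (Control; n = 3). At P42 the refractive error was 0.2745 to 0.976 D in the FDM eyes and 2.4455 to 3.1505 D in the control eyes. The second FDM library is numbered 2 by its label but 3 in the count table and in the supplement of the paper, and 3 is kept below. By that numbering FDM 1 and Control 1 share mouse 1, FDM 3 and Control 3 share mouse 3, and the goggled eye missing for mouse 2 (Control 2) is the sample removed for read duplication. By the label, the second FDM library would be the partner of Control 2 instead. Both eyes of a mouse share an animal, and the p-values measure the spread between these 5 libraries.

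At a conventional synapse, Syt1 and some of its relatives sense calcium. The SNAREs Snap25, Vamp and syntaxin draw the vesicle membrane and the plasma membrane together, and complexins clamp and assist the assembled SNARE complex. Photoreceptors and bipolar cells release glutamate continuously from ribbon synapses, at which syntaxin 3 (Stx3) and the complexins Cplx3 and Cplx4 are known to take the places of syntaxin 1 (Stx1a) and Cplx1 and Cplx2. Amacrine cells form the conventional synapses of the retina and also use Cplx3 in some types. A whole retina mixes all of these terminals, so that fewer cells of a type and less RNA per cell could not be told apart in any value below.

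Upstream sequence is shown for a ribbon and a conventional syntaxin and for a ribbon and a conventional complexin, since the levels within these pairs set the isoform comparison below. The windows hold the 250 bases before the RefSeq gene start on GRCm38.p6, read 5′ to 3′ on the strand of the gene: chr19:11819404-11819653 (minus strand) for Stx3, chr5:135023232-135023481 (plus strand) for Stx1a, chr9:57606282-57606531 (minus strand) for Cplx3 and chr5:108550028-108550277 (minus strand) for Cplx1. Capitals mark matches, on either strand, to a TATA motif (TATAAA), a GC box (GGGCGG), a cAMP response element (TGACGTCA) or the core bound by the photoreceptor factors CRX and OTX2 (TAATCC).
Stx3: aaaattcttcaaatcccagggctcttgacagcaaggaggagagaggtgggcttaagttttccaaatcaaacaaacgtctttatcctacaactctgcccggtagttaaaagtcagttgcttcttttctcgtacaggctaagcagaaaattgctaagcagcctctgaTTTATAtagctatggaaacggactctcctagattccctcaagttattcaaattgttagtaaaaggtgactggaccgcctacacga
Stx1a: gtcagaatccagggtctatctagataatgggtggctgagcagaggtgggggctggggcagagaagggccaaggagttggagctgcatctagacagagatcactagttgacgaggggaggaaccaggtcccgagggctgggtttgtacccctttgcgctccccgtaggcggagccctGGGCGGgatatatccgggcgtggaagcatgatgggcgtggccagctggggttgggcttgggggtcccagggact
Cplx3: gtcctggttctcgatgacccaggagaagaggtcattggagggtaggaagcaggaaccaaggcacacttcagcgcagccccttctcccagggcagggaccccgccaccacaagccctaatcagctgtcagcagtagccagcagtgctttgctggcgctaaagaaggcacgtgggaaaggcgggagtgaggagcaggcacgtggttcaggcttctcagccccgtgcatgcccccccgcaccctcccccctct
Cplx1: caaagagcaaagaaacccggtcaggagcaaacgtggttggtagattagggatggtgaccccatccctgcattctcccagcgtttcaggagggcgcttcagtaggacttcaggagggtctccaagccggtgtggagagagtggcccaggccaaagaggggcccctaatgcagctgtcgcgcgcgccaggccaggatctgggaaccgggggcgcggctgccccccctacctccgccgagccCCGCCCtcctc
The Stx3 window held the TATA motif and the Stx1a and Cplx1 windows each held a GC box, while none of these letters stood in the Cplx3 window. Windows were found for 29 of the 36 genes. Of these, 16 held the GC box (32.9% of all 27025 windows of this length), 2 the TATA motif (Stx3 and Sv2b; 13.0% of all), 2 the CRX and OTX2 core (Sv2b and Syp; 6.38% of all) and 1 the cAMP response element (Syn1; 1.62% of all). These matches are a description of letters and not of binding.

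Before the groups were compared, the libraries were checked for other tissues and for technical differences. The totals ran from 40599047 (Control 1) to 56534931 counts (Control 2). Summed over 18 lens genes, FDM 3 held 2694 CPM (counts scaled to the library total and its TMM factor), against 27.5 to 64.1 CPM in the other 4 libraries, while FDM 1 held 29.9 CPM and lay inside the control range. At an unadjusted p under 0.05 in the edgeR test described below, 15 of the 17 lens genes tested were higher in FDM (79 of all 17432 genes tested were). Summed retinal pigment epithelium genes stood at 90.5 to 101 CPM in FDM and 105 to 316 CPM in control eyes (7 of 13 genes lower in FDM at the same threshold, as were 202 of all genes), and summed muscle genes at 64.7 CPM in Control 3 against 9.32 to 10.9 CPM elsewhere. Rod markers, the retinal list with the highest level, summed to 57477 to 62398 CPM in FDM eyes, inside the 52656 to 65998 CPM of the control eyes, and no retinal marker of the rod, cone, bipolar, amacrine, horizontal, ganglion or Müller glia lists passed the test in either direction. The summed lists of 3 retinal cell types did not overlap between the groups, by small gaps for amacrine and bipolar markers. Amacrine markers stood at 1182 to 1221.4 CPM in FDM and 1222.4 to 1293 CPM in control eyes. Bipolar markers stood at 1393.2 to 1422 and 1386 to 1389.6 CPM, and microglial markers at 24.2 to 26.4 and 27.6 to 31.3 CPM. These sums were not tested. Of all single genes tested, 3.97% were above every control in both FDM libraries and 6.67% were below. The part of these cell types and of the other tissues in the presynaptic values was not tested beyond leaving out each library.

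The release machinery was close to even between FDM and control eyes. In edgeR's quasi-likelihood test, 0 of the 36 genes had an unadjusted p under 0.05, the threshold used in the study, while 1.61% of all 17432 genes tested did (281 genes; 0 after adjustment for all genes tested). DESeq2 on the same counts also called 0 of the 36 (172 of all genes, 3 after adjustment). After adjustment over all genes tested, p was 1.0 for each of the 36 without a block. The log2 difference, FDM minus Control, was above 0 for 18 members and below 0 for 18, with a median of 0.00 (-0.01 over all genes). It ran from -0.17 for Syt4 to 0.17 for Bsn, and the median of its absolute size was 0.03 for the members and 0.07 for all genes. These medians were not matched for level, and the members stood higher (median 31.9 CPM per kilobase of transcript, against 5.74 over all genes tested). Under the authors' own normalization the lowest member was Syn3, a synapsin, at -0.26 (limma on their normalized counts) to -0.27 (their factors as offsets; unadjusted p = 0.0745, edgeR), in place of the -0.07 found here. The 95% interval lay within a 1.2-fold difference either way for 15 members and within 1.5-fold for 35, Syt4 being the exception, and over all members the bounds reached from 0.645-fold to 1.38-fold. The sign of a difference this small was not stable, and 28 of the 36 members changed it under at least 1 of 17 alternative ways of processing.

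**Figure D1:**
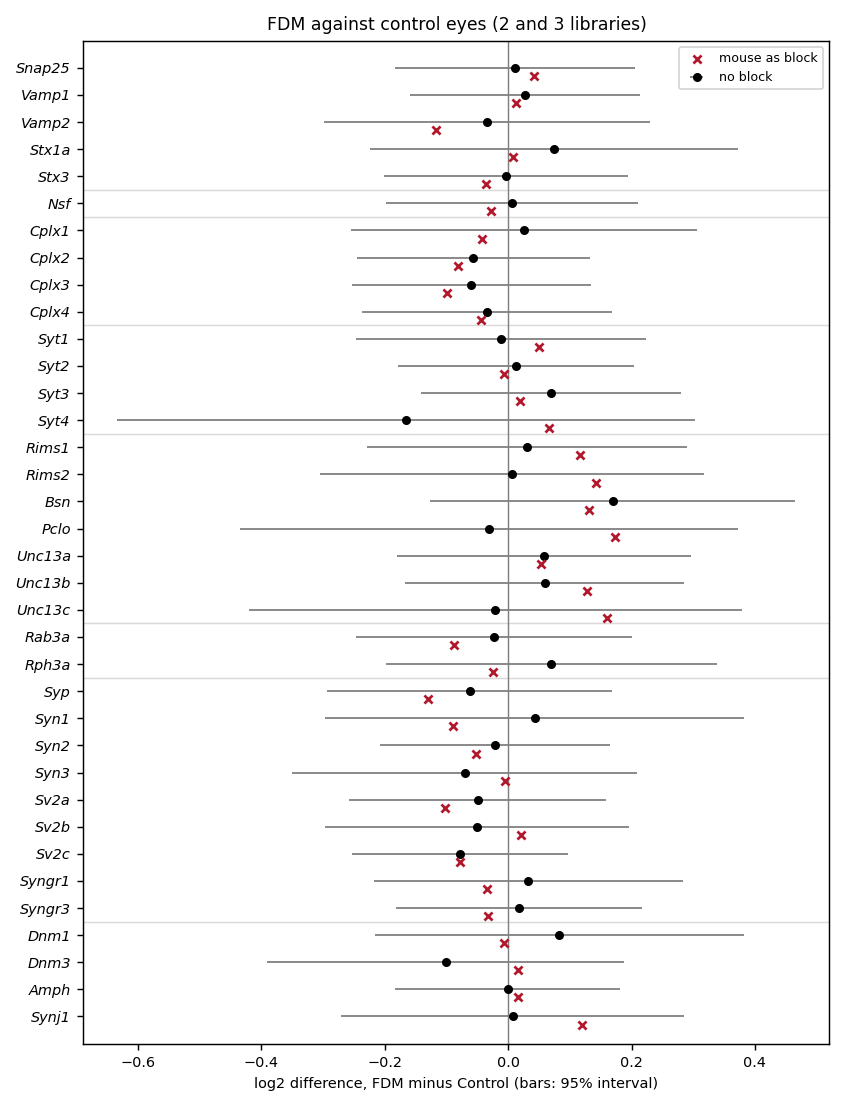
Log2 difference (FDM minus Control) for the 36 genes, ordered by role, with the 95% interval of the edgeR fit without a block as a bar (2 FDM and 3 control libraries) and the estimate with the mouse as a block as a cross. Every bar crosses 0, the points run from -0.17 to 0.17, and the crosses shift furthest to the right for Syt4, Pclo, Unc13c and Rims2 and furthest to the left for Syn1, Rph3a, Dnm1 and Vamp2.

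The libraries themselves overlapped in the same way. Both FDM libraries lay above every control for 0 of the 36 members, against 3.97% of all genes, and below every control for 1 member, Sv2c, against 6.67% of all genes. For 28 members both FDM libraries fell between the lowest and the highest control, and the share of all genes was not computed. Across a member, the median range on the log2 CPM scale was 0.06 between the 2 FDM libraries and 0.23 between the 3 controls. Control 2 was the highest library for 13 members and the lowest for 18, and Control 1 was the highest for 12 and the lowest for 10. The highest library exceeded the lowest by 1.04-fold (Amph) to 1.70-fold (Syt4), with a median of 1.19-fold.

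**Figure D2:**
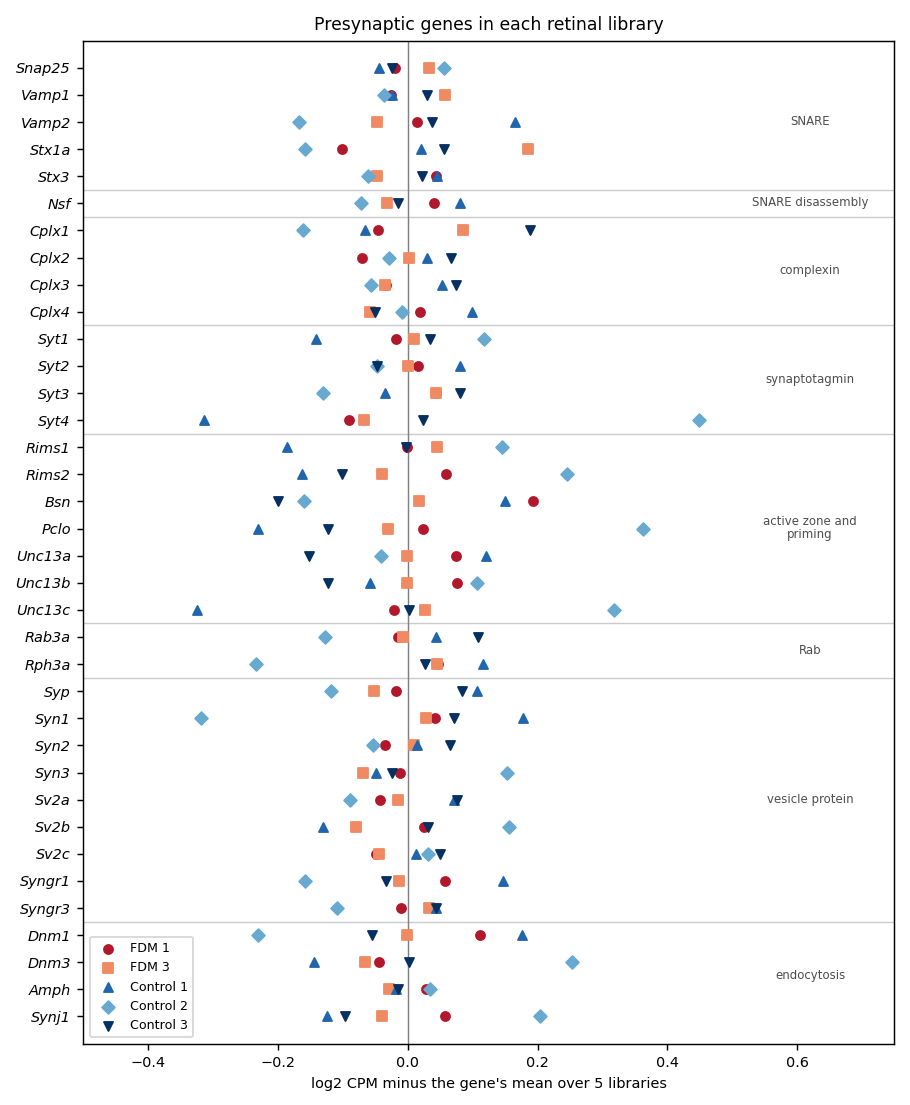
Level of each gene in the 5 libraries, as log2 CPM minus the mean of that gene over the libraries, with FDM eyes in red and orange and control eyes in blue. Control 1 and Control 2 form the outer points for 20 of the 36 genes, on opposite sides, as they do for 33.3% of all genes tested. The FDM points of the 36 genes mostly lie between them.

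The spread between the libraries moved with base composition and, in some of them, with transcript length. The GC content of the longest transcript ran from 38.7% (Snap25) to 59.8% (Bsn) over the members. Across the 36 members, which share the 5 libraries, the deviation of Control 1 from the gene mean had a Pearson correlation of 0.63 with GC content and that of Control 2 one of -0.77, and over the 11465 genes with more than 250 counts in every library the values were 0.55 and -0.65. Of the 15 members under 48% GC, a division chosen after the values were seen, 12 were higher in Control 2 than in Control 1 (median log2 difference 0.26), and of the 21 at or above it 2 were (median -0.15). Over all genes the medians were 0.17 and -0.12. Members of low GC such as Syt4, Pclo, Unc13c and Dnm3, which differ in their roles at the synapse, had their highest values in Control 2 and their lowest in Control 1. With the log2 length of the longest transcript, the deviation of Control 3 had a Pearson correlation of -0.70 over the members (0.17 with GC content). The correlations with length were 0.47 in Control 2, 0.37 in FDM 1, -0.32 in Control 1 and -0.14 in FDM 3. Those over all genes were not computed.

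**Figure D3:**
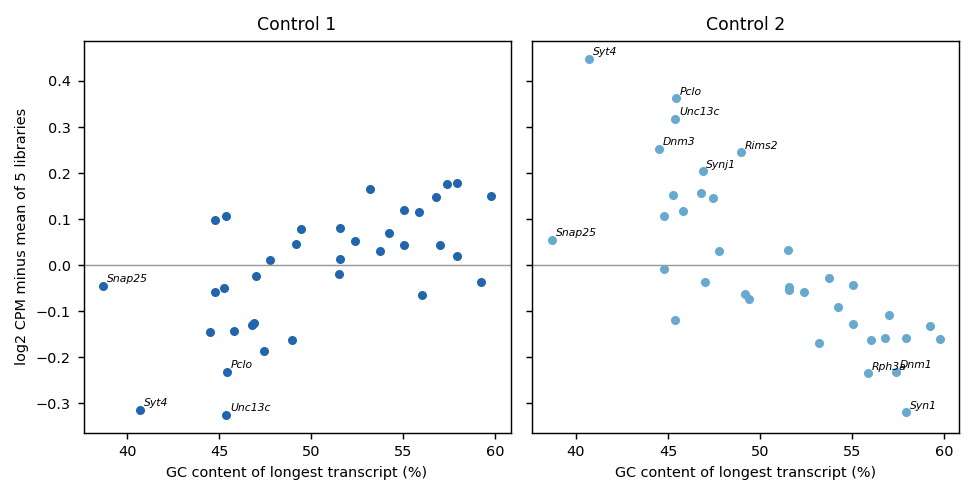
Deviation of log2 CPM from the 5-library mean against the GC content of the longest transcript for the 36 genes, in Control 1 (left) and Control 2 (right). The points rise with GC content in Control 1 (Pearson 0.63) and fall in Control 2 (Pearson -0.77).

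The SNARE proteins form the fusion complex. None of the 5 passed the test (smallest unadjusted p = 0.576, edgeR), and their log2 differences ran from -0.03 to 0.07. Stx3 (chromosome 19 of GRCm38, 11775118 to 11819403, protein coding), the ribbon syntaxin, stood at 707 and 664 CPM in FDM 1 and 3 and 708, 658 and 697 CPM in Control 1, 2 and 3. The 2 FDM eyes lay inside the control range, with means of 686 ± 30.8 CPM (SD, n = 2) and 687 ± 26.5 CPM (SD, n = 3). Its log2 difference was -0.00 with a 95% interval of -0.20 to 0.19 (standard error 0.08, unadjusted p = 0.964, edgeR). Stx1a (chromosome 5, 135023482 to 135051100), the conventional syntaxin, had 11.4 and 14.0 CPM in FDM 1 and FDM 3 and 12.4, 11.0 and 12.8 CPM in Control 1, 2 and 3. One FDM eye was thus the highest of the 5 libraries and the other the second lowest, and the log2 difference was 0.07 (-0.22 to 0.37, standard error 0.13, unadjusted p = 0.576, edgeR).

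Vamp2 (chromosome 11, 69088490 to 69092384), the main SNARE of the vesicle membrane, had 840 and 804 CPM in FDM 1 and 3 and 932, 740 and 853 CPM in Control 1, 2 and 3. The FDM values fell inside the control range, but each was below the control eye of its own mouse, by 0.15 on the log2 CPM scale in mouse 1 and by 0.08 in mouse 3. Without the mouse in the model the log2 difference was -0.03 (-0.30 to 0.23, standard error 0.11, unadjusted p = 0.773, edgeR), and a block for the mouse took it to -0.12 (standard error 0.05, unadjusted p = 0.0487, adjusted p = 0.687, edgeR). Snap25, the SNARE of the plasma membrane, had 1090 to 1168 CPM over the 5 libraries and a log2 difference of 0.01. Vamp1, the relative of Vamp2 in the vesicle membrane, had 122 to 130 CPM and a difference of 0.03. Nsf, the ATPase that takes spent SNARE complexes apart, had 573 to 637 CPM and a log2 difference of 0.01.

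The complexins bind the assembled SNARE complex, and none of the 4 passed the test (smallest unadjusted p = 0.494, edgeR). Cplx3 (chromosome 9, 57599992 to 57606281), a ribbon complexin, stood at 370 and 369 CPM in FDM 1 and 3 and 393, 364 and 399 CPM in Control 1, 2 and 3. Its FDM values were nearly equal and lay inside the control range, and the log2 difference was -0.06 (-0.25 to 0.13, standard error 0.08, unadjusted p = 0.494, edgeR). Cplx4, the complexin of photoreceptor terminals, had 474 and 449 CPM in FDM and 501, 465 and 452 CPM in Control 1, 2 and 3. FDM 3 was the lowest library, with a log2 difference between the groups of -0.03 (-0.24 to 0.17, standard error 0.09, unadjusted p = 0.700, edgeR).

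The conventional complexins Cplx1 and Cplx2 likewise did not pass the test. Cplx1 (chromosome 5, 108518554 to 108550024) had 143 and 157 CPM in FDM 1 and 3 and 141, 132 and 169 CPM in Control 1, 2 and 3, with FDM inside the control range and a log2 difference of 0.03 (-0.25 to 0.31, standard error 0.12, unadjusted p = 0.836, edgeR). Cplx2 (chromosome 13, 54371349 to 54383917) had 246 and 259 CPM in FDM and 264, 253 and 270 CPM in Control 1, 2 and 3. FDM 1 was the lowest library and the log2 difference was -0.06 (-0.25 to 0.13, standard error 0.08, unadjusted p = 0.504, edgeR). The groups overlapped for each of the 4 complexins.

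Whether the balance of ribbon to conventional isoforms differed between the eyes was tested on their ratio within a library. The Stx3 to Stx1a ratio of CPM, on the log2 scale, was 5.95 and 5.57 in FDM 1 and 3 and 5.83, 5.90 and 5.77 in Control 1, 2 and 3. FDM held both the highest and the lowest ratio, with means of 5.76 ± 0.27 (SD, n = 2) and 5.83 ± 0.07 (SD, n = 3) and a difference of -0.07 (exact two-sided permutation test over libraries, p = 0.8). The corresponding differences were -0.09 for Cplx3 to Cplx1 (p = 0.4), -0.00 for Cplx3 to Cplx2 (p = 1), -0.07 for Cplx4 to Cplx1 (p = 0.8) and 0.02 for Cplx4 to Cplx2 (p = 0.8, exact permutation tests; adjusted p = 1 for all 5 ratios). With 2 against 3 libraries this two-sided test could not go below 0.2.

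**Figure D4:**
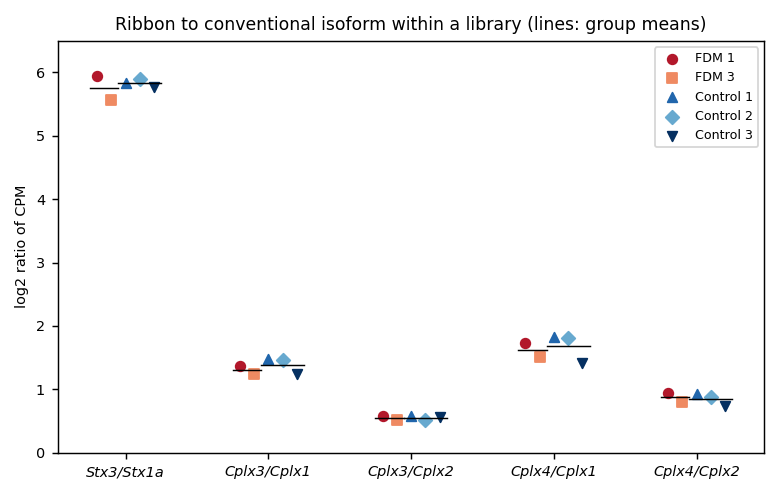
Ratio of a ribbon to a conventional isoform within each library, on the log2 scale of CPM, for 5 pairs of genes, with group means as lines. The FDM and control libraries overlap for each pair, and the differences of the means run from -0.09 to 0.02.

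Ribbon isoforms were the more abundant ones in every library. Per kilobase of the longest transcript and averaged over the 5 libraries, the level of Stx3 was 39.4 times that of Stx1a (224 and 5.69 CPM per kilobase). Cplx4 stood at 258 CPM per kilobase and Cplx3 at 132, while Cplx1 stood at 67.8 and Cplx2 at 52.4. In level per length, Cplx3 thus exceeded Cplx1 1.95-fold and Cplx2 2.53-fold, and Cplx4 exceeded Cplx1 3.81-fold and Cplx2 4.92-fold. These ratios rest on the length taken for each gene. With the mean length of the annotated transcripts the level ratio of Stx3 to Stx1a was 51.9 and that of Cplx3 to Cplx2 was 5.43.

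Over all 36 members the highest level per length was that of Syp, synaptophysin, which spans the vesicle membrane, at 387 ± 25.1 CPM per kilobase (SD over 5 libraries), followed by Vamp2 at 378 ± 31.9 CPM per kilobase. The library ranges of these neighbours in the order overlapped, as did those of Snap25 (223 to 239 CPM per kilobase) and Stx3 (214 to 231). At the low end stood Unc13c at 4.11, Sv2c at 4.70, Syt2 at 5.60 and Syn3 at 1.47 CPM per kilobase. The median member had 31.9 CPM per kilobase against 5.74 over the 17413 tested genes with a length, and 31 members lay above that median. In all, 18 members fell among the top 10% of genes. With the longest coding transcript in place of the longest of any kind, Snap25 moved from 230 to 532 CPM per kilobase. It then stood first, ahead of Syp at 425 and Vamp2 at 378, so the order at the top depends on the length taken.

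**Figure D5:**
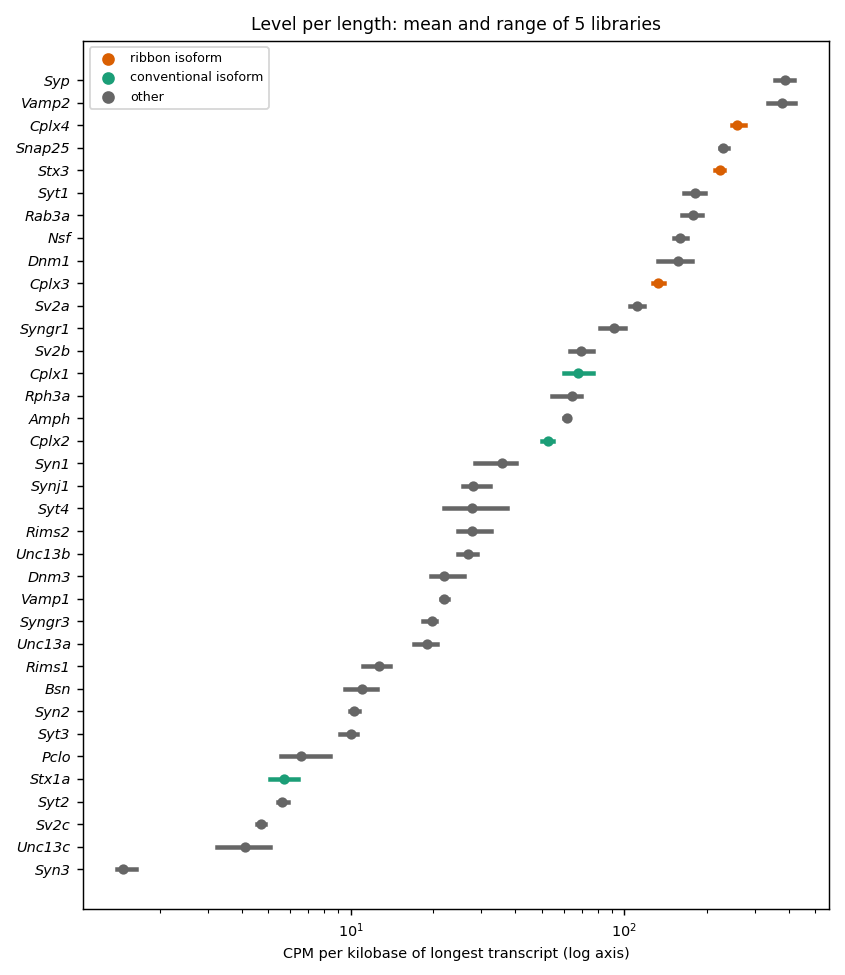
Level of each gene as CPM per kilobase of its longest transcript (log axis), with the mean of the 5 libraries as a point and their range as a bar. The ribbon isoforms Cplx4 (258), Stx3 (224) and Cplx3 (132) stand above the conventional isoforms Cplx1 (67.8), Cplx2 (52.4) and Stx1a (5.69).

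Synaptotagmins are membrane proteins, many of which sense calcium. None of the 4 passed the test (smallest unadjusted p = 0.432, edgeR). Syt1, the fast sensor, had 794 to 950 CPM over the 5 libraries and a log2 difference of -0.01, and Syt2, its close relative, 37.2 to 40.7 CPM and 0.01. Syt3 (chromosome 7, 44384102 to 44400187), a sensor with a high affinity for calcium, had 27.1 CPM in both FDM 1 and FDM 3, and 25.6, 24.0 and 27.8 CPM in Control 1, 2 and 3. Both FDM eyes lay inside the control range, and the log2 difference was 0.07 (-0.14 to 0.28, standard error 0.09, unadjusted p = 0.461, edgeR). Syt4, which does not bind calcium in the usual way and sits partly on other organelles, had 99.6 and 101 CPM in FDM 1 and 3 and 85.3, 145 and 108 CPM in Control 1, 2 and 3. The 2 FDM eyes were almost equal while the controls spread 1.70-fold around them, so that its log2 difference of -0.17 had the widest interval of all members (-0.63 to 0.30, standard error 0.20, unadjusted p = 0.432, edgeR). Without Control 2 it was 0.07, and without Control 1 it was -0.33.

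The active zone and priming proteins build the site of release and make docked vesicles ready for fusion. Without the mouse in the model, none of the 7 passed the test and 5 were above 0, with a median log2 difference of 0.03. When the mouse entered as a block, 5 of the 36 members (13.9%) had an unadjusted p under 0.05, against 7.23% of all genes, and none passed after adjustment (smallest adjusted p = 0.619, edgeR). Of these, 3 were higher in FDM (Pclo, Unc13b and Rims2, all of the active zone and priming group, against 3.57% of all genes) and 2 were lower (Syp and Vamp2, against 3.67%). The 3 also had the longer transcripts (20084, 14754 and 4800 bases for the longest of each, against 2843 for Syp and 2205 for Vamp2). No fit removed a trend with length, and its part in these differences was not tested. This fit leaves 1 residual degree of freedom and draws on the 2 pairs of eyes alone. With the eyes paired by the label numbers in place of these, 0 members passed.

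Pclo (chromosome 5, 14514918 to 14863459) encodes Piccolo, a giant scaffold of the active zone. It had 133 and 128 CPM in FDM 1 and 3 and 112, 168 and 120 CPM in Control 1, 2 and 3. Each FDM eye was above the control eye of its mouse, by 0.25 and 0.09 on the log2 CPM scale, while Control 2, without a partner, was the highest library. The log2 difference was -0.03 without the mouse (-0.43 to 0.37, standard error 0.17, unadjusted p = 0.864, edgeR) and 0.17 with it (standard error 0.06, unadjusted p = 0.0190, adjusted p = 0.619, edgeR), and leaving out Control 2 brought Pclo past the unadjusted threshold at 0.18.

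Unc13b (chromosome 4, 43058953 to 43264871) encodes Munc13-2, a priming factor. It had 418 and 396 CPM in FDM 1 and 3 and 381, 427 and 365 CPM in Control 1, 2 and 3. Both FDM eyes stood above their partners, by 0.14 and 0.12 on the log2 CPM scale, and inside the range of all controls. Its log2 difference was 0.06 without the mouse (-0.17 to 0.29, standard error 0.10, unadjusted p = 0.557, edgeR) and 0.13 with it (standard error 0.05, unadjusted p = 0.0287, adjusted p = 0.654, edgeR). Rims2 (chromosome 15, 39198261 to 39684372), which ties vesicles and calcium channels to the active zone, had 138 and 129 CPM in FDM and 118, 157 and 123 CPM in Control 1, 2 and 3. The same order held as for Pclo, with both FDM eyes above their partners and Control 2 the highest, and the log2 difference went from 0.01 (-0.31 to 0.32, standard error 0.13, unadjusted p = 0.967, edgeR) to 0.14 with the mouse (standard error 0.06, unadjusted p = 0.0427, adjusted p = 0.683, edgeR).

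Bsn (chromosome 9, 108096022 to 108190384) encodes Bassoon, which anchors the ribbon at the active zone, and had the smallest p of all members without the block. It stood at 199 and 176 CPM in FDM 1 and 3 and 193, 156 and 151 CPM in Control 1, 2 and 3. FDM 1 was the highest library and FDM 3 lay below Control 1, so the groups overlapped. The log2 difference was 0.17 (-0.13 to 0.47, standard error 0.13, unadjusted p = 0.219, edgeR), and 0.13 with the mouse as a block (unadjusted p = 0.0551, edgeR). Leaving out Control 1 took it to 0.29 and past the unadjusted threshold. An annotated gene on the same strand, Gm47303, overlaps its exons.

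The remaining members of the group, Unc13a, Unc13c and Rims1, passed the test in neither fit. Unc13a and Unc13c, the other Munc13 priming factors, had 175 to 211 CPM and 28.6 to 44.6 CPM over the 5 libraries, with log2 differences of 0.06 and -0.02. Rims1, the relative of Rims2, had 71.5 to 90.02 CPM and a difference of 0.03. With the GC trend of each library removed and the mouse as a block, a fit chosen after the data were seen, 5 members again had an unadjusted p under 0.05, against 7.47% of all genes, and 4 of them were shared with the block alone. Bsn (0.17, unadjusted p = 0.0070, edgeR) passed in place of Vamp2, which stood at -0.09 (unadjusted p = 0.0911, edgeR), and none passed after adjustment (smallest adjusted p = 0.454, edgeR).

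Rab3a, the GTPase of the vesicle membrane, and its effector Rph3a (rabphilin) did not pass the test in either fit. Rab3a had 253 to 299 CPM over the 5 libraries and a log2 difference of -0.02, and Rph3a 226 to 288 CPM and 0.07. In both genes Control 2 was the lowest library.

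Among the 9 vesicle proteins, 3 were above 0 and 6 below, with a median log2 difference of -0.05, and none passed the test without the block (smallest unadjusted p = 0.331, edgeR). Sv2c (chromosome 13, 95954594 to 96132577), a transporter-like glycoprotein of the vesicle, was the member whose groups did not overlap. It had 41.4 and 41.5 CPM in FDM 1 and 3 and 43.2, 43.7 and 44.3 CPM in Control 1, 2 and 3. All 3 controls were higher than both FDM eyes, and the log2 difference was -0.08 (-0.25 to 0.10, standard error 0.07, unadjusted p = 0.331, edgeR). It kept its sign under each of the 17 alternatives tried. With this order of the libraries, the fits that left a library out or paired the eyes could hardly have changed it. Sv2a and Sv2b, its relatives, had 454 to 510 CPM and 349 to 425 CPM, each with a log2 difference of -0.05.

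Syp (chromosome X, 7638471 to 7653256), synaptophysin, had 1084 and 1059 CPM in FDM 1 and 3 and 1182, 1012 and 1163 CPM in Control 1, 2 and 3. Both FDM eyes were below their partners, by 0.12 and 0.14 on the log2 CPM scale, and above Control 2. The log2 difference was -0.06 without the mouse (-0.29 to 0.17, standard error 0.10, unadjusted p = 0.543, edgeR) and -0.13 with it (standard error 0.05, unadjusted p = 0.0307, adjusted p = 0.654, edgeR). An opposite-strand gene, Gm14703, overlaps exons of Syp, and the library kit does not mark the strand. Reads of the 2 genes within the overlap could therefore not be told apart by strand, and the size of the overlap was not computed.

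The synapsins coat vesicles of conventional terminals and are known to be missing from ribbon terminals. Syn1 had 92.5 to 131 CPM over the 5 libraries, Syn2 38.2 to 41.4 CPM and Syn3 6.70 to 7.81 CPM, with log2 differences of 0.04, -0.02 and -0.07. The synaptogyrins Syngr1 and Syngr3, relatives of synaptophysin, had 342 to 422 CPM and 36.2 to 40.2 CPM, with differences of 0.03 and 0.02. Exons of Syn1, Syn2 and Syn3 overlap opposite-strand genes (Araf, Timp4 and Timp3), as do those of 8 other members.

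The endocytic proteins retrieve spent vesicle membrane, and none of the 4 passed the test in either fit. Dnm3 (chromosome 1, 161982453 to 162478034), a dynamin that cuts vesicles from the membrane, had 159 and 157 CPM in FDM and 148, 195 and 164 CPM in Control 1, 2 and 3. The FDM eyes were nearly equal and lay inside the control range, and the log2 difference of -0.10 (-0.39 to 0.19, standard error 0.12, unadjusted p = 0.438, edgeR) became 0.02 with the mouse as a block. Dnm1, the main neuronal dynamin, had 613 to 813 CPM and a difference of 0.08. Amph, which recruits dynamin, had 203 to 212 CPM and Synj1, the lipid phosphatase that uncoats vesicles, 182 to 229 CPM, with differences of -0.00 and 0.01.

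In the pairs of eyes, 8 members were higher in the FDM eye of both mice and 13 were lower in both, while 24.7% and 30.3% of all genes were. The median within-pair log2 difference was -0.02 over the members in both mouse 1 and mouse 3. The members higher in both mice were Pclo, Rims1, Rims2, Unc13b, Unc13c, Bsn, Synj1 and Snap25. Those lower in both were Vamp2, Nsf, Cplx2, Rab3a, Syp, Syn1, Syn2, Sv2a, Sv2c, Syngr3 and all 3 ribbon isoforms. The longest transcript ran from 4800 (Rims2) to 20084 bases (Pclo) over the members higher in both. It ran from 1556 (Rab3a) to 9101 bases (Sv2c) over those lower in both, and the part of length was not tested. In mouse 1 and mouse 3 the within-pair differences were -0.0018 and -0.07 for Stx3, -0.09 and -0.11 for Cplx3 and -0.08 and -0.0090 for Cplx4. With the mouse as a block, their log2 differences were -0.04, -0.10 and -0.04, and none passed the threshold (smallest unadjusted p = 0.0753, for Cplx3, edgeR). Of the conventional isoforms, Cplx2 was lower in both mice (-0.10 in mouse 1 and -0.06 in mouse 3), while Stx1a and Cplx1 differed in sign between the mice. Control eyes 1 and 3 enter these differences and the group comparison alike.

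A wider list of 96 release genes, among them other syntaxins, SNARE regulators, synaptotagmins, liprins, calcium channels, vesicular transporters, clathrin adaptors and proton pump subunits, was read from the same fit. Of these, 93 were tested and 0 had an unadjusted p under 0.05 without the block, with a median log2 difference of -0.02. The smallest p belonged to Syt5, a synaptotagmin, at 15.7 and 18.1 CPM in FDM and 18.0, 19.8 and 21.99 CPM in Control 1, 2 and 3, with a log2 difference of -0.24 (-0.52 to 0.04, standard error 0.12, unadjusted p = 0.0802, edgeR). Syngr2 (log2 difference -0.22, unadjusted p = 0.136, edgeR) and Syt10 (-0.44, unadjusted p = 0.199, edgeR), the latter at about 1 CPM, followed. When the mouse was blocked, 7 of the 93 passed the unadjusted threshold (7.53%, against 7.23% of all genes), 3 higher and 4 lower, and 0 passed after adjustment. The higher ones were Ppfia2, a liprin of the active zone (log2 difference 0.20), Rab3gap2, which acts on Rab3 (0.19), and Cacna1b, the N-type calcium channel (0.15). The lower ones were Syt5 (-0.24), the proton pump subunits Atp6v0c (-0.14) and Atp6v0d1 (-0.13) and Slc17a7, the vesicular glutamate transporter VGLUT1 of ribbon terminals (-0.12).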

How the data were processed

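PolyA RNA of 5 mouse retinas was sequenced by the authors with a TruSeq v2 library kit, which does not mark the strand. Per the submitters' processing notes, the authors used Trimmomatic 0.39, Salmon 1.10.1 and R 4.3.1, and they deposited an estimated count for each gene as whole numbers, which needed no rounding. The authors also deposited a normalized signal, the counts scaled with DESeq2 by a factor for each gene and library, which was used for alternatives alone. Salmon shares reads between similar transcripts, so that counts of relatives are estimates. For its meta-analysis the study names Ensembl 91 on GRCm38. Gene positions, lengths and GC content were taken from GENCODE M21, a later release on the same build, in which 33585 of the 33635 gene identifiers were found. One repeated identifier at 0 counts was dropped.

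The 17432 genes that exceeded 10 counts in 2 or more libraries were tested with edgeR 4.0.16 (R 4.3.3), using TMM factors and the quasi-likelihood test over all 5 libraries with no covariate. The threshold was an unadjusted p of 0.05, as in the study, with Benjamini-Hochberg values over all genes tested beside it. Standard errors are the log2 difference divided by the square root of F. No member was at or under the 3 counts treated as a floor. Ratios of isoforms were compared by exact permutation of the library labels. Totals ran from 40599047 to 56534931 counts. Counting error need not be small beside the spread between libraries where that spread is narrow. An example is Sv2c, with 1723 to 2493 counts and an SD of 0.57 CPM around 43.7 CPM in the controls.

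All 36 members are named, by role. Full values are given for the 5 with the smallest p, for the ribbon and conventional isoforms and for those past the threshold with the mouse as a block. The members, the wider list of release genes and the marker lists were chosen with earlier results of these data known. Of the wider list, 3 symbols were not matched.

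The mouse numbers come from the supplement of the paper and the count table. Over 17432 genes, the deviations from the group means correlated at 0.26 for FDM 1 with Control 1 and at 0.12 for FDM 3 with Control 3. The pairing by the label number, FDM 3 with Control 2, had 0.16, so these values do not settle the numbering. No 2 libraries were duplicates, with a chi-square per degree of freedom of at least 9.46.

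The alternatives comprised the Wald test of DESeq2 (1.42.0), limma-trend (3.58.1) on the log2 normalized signal with a pseudocount of 1 or 0.1, changed normalization factors and count filters, a block for the mouse, each library left out in turn and, for levels, other transcript lengths. Offsets for GC content (a lowess trend in each library, span 0.3) and the longest coding transcript were added after the data were seen. The scripts were tested on simulated data for this comparison, with 200 of 17432 genes changed. At the unadjusted threshold edgeR recovered 38.5% of these at 1.2-fold, 82.5% at 1.5-fold and 92% at 2-fold. It also called 4.56% to 4.67% of the unchanged genes, against 1.61% of all genes in the real libraries. The simulated counts were drawn gene by gene, without trends shared by a library or a mouse. These rates may therefore not hold for the real libraries.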

Additional observations from a re-analysis of the deposited data

How the results depend on the processing

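Of the 36 members, 8 (Cplx2, Cplx3, Syt3, Bsn, Unc13b, Syp, Sv2a and Sv2c) kept their sign under all 17 alternatives, and under the 9 that used neither a block nor a left-out library 0 members had an unadjusted p under 0.05. Over all genes, the number at this threshold was 172 with DESeq2 and 498 with no count filter, and the number after adjustment was 3 with DESeq2. With the replicate block by mouse, 1261 genes had an unadjusted and 54 an adjusted p under 0.05, 5 members passed the unadjusted threshold, and 15 members changed sign. Among those with full values, these were 0.065 for Syt4, 0.017 for Dnm3, -0.043 for Cplx1 and 0.17 for Pclo. The replicate block together with GC offsets gave 1303 and 57 genes and 5 members (10 changed sign), with 0.030 for Syt4, -0.0095 for Cplx1 and 0.15 for Pclo. The replicate block by the label numbers gave 439 and 128 genes and 0 members (9 changed sign), with -0.032 for Rims2 and 0.0058 for Stx3. Stx3, at -0.00 as reported, was 0.0029 with DESeq2 or its size factors, 0.0097 with upper-quartile factors, 2.8e-05 with GC offsets and 0.023 with limma or the authors' factors. Pclo was 0.064 with limma at either pseudocount and 0.054 with the authors' factors. Syn3, at -0.07 as reported, was -0.26 with limma and -0.27 with the authors' factors. The cause of these changes was not tested. The median level per length was 70.0 CPM per kilobase with mean and 38.6 with coding transcript lengths.

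With each library left out in turn, the number of genes at the unadjusted threshold was 944 without Control 1, 550 without Control 2, 146 without Control 3 and 165 without FDM 1. The number after adjustment ran from 0 to 16 and the number of members from 0 to 1 (Bsn without Control 1, Pclo without Control 2). The log2 differences ran from -0.33 to 0.066 for Syt4, from -0.19 to 0.025 for Dnm3, from -0.050 to 0.041 for Stx3, from -0.076 to 0.21 for Stx1a, from -0.041 to 0.14 for Cplx1, from -0.074 to 0.010 for Cplx4, from 0.079 to 0.29 for Bsn, from -0.070 to 0.15 for Rims2, from -0.14 to 0.18 for Pclo and from -0.11 to 0.047 for Vamp2. The ratio differences ran from -0.26 to 0.12 for Stx3 to Stx1a, from -0.039 to 0.035 for Cplx3 to Cplx2, from -0.20 to 0.038 for Cplx4 to Cplx1 and from -0.052 to 0.097 for Cplx4 to Cplx2. Where 1 FDM library remained, it was assumed to vary like the controls. Depth limits the lowest members most, down to 271 counts for Syn3.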
